A study of Homo sapiens with 6 samples.

Results

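The human genome carries, beside the 7SK gene RN7SK, many pseudogene copies of it, annotated as RN7SKP followed by a number. The copies described here are those whose level averaged at least 0.5 RPKM (reads scaled to the length of the transcript and the size of the library) over the 6 RNA-seq libraries, which left 57 of the 285 copies measured (20% of them), each with 1 transcript. The table as a whole held 207167 transcripts, of which 75700 reached the same mean. The libraries came from human embryonic kidney cells, labelled HEK293 and described in the study's methods as HEK293T-Rex, which carry a tetracycline repressor. The 3 D391N libraries were from a line with an integrated, doxycycline-induced DIS3L2 whose catalytic site carries the D391N substitution, and the 3 control libraries were from the line without it. Each condition was 1 cell line, so an effect of the construct and an effect of the line cannot be told apart, and whether the control cells received doxycycline is not given in the sources used here. Nothing says that the replicates were separate cultures, so p-values measure the spread between these libraries, which may be technical.

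7SK is an abundant nuclear RNA made by RNA polymerase III. With the proteins LARP7, MEPCE and HEXIM1 it holds the kinase P-TEFb (CDK9 with a cyclin T) in an inactive complex, and release of P-TEFb lets RNA polymerase II leave its pause. DIS3L2 is a cytoplasmic exonuclease that degrades RNAs with an untemplated oligo(U) tail, and D391N lacks that activity. The copies of 7SK arose by retrotransposition, mostly without the upstream promoter elements that drive RN7SK, and are not known to act in the 7SK complex.

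The copies differed from RN7SK mainly in their second part. Their length ran from 224 to 340 nt with a median of 309 nt, against 331 nt for RN7SK itself (ENSG00000202198, transcript ENST00000365328, chr6:52860418-52860748, plus strand). All positions are from GRCh37 (GENCODE v44lift37), since the values were made on GRCh38 transcripts and carry no coordinates. Over aligned bases, identity to RN7SK was 61.5% to 94.0% with a median of 84.4%, and 5 copies were under 75%. The median identity was 91.8% over the first 110 bases of RN7SK, 87.3% over the next 110 and 68.9% over the rest. The label of the copies as relatives of 7SK thus held best at the 5′ end, which is the hairpin that HEXIM1 binds in 7SK. The stretch that aligned to bases 1 to 80 of RN7SK is shown for RN7SK, for copies close to it, for the copies with the most negative changes and for 3 of the 11 copies with a positive log2 fold change, from the GENCODE v44lift37 transcripts. Capitals mark a base that differs from RN7SK or is inserted, and deleted bases are not drawn.
RN7SK: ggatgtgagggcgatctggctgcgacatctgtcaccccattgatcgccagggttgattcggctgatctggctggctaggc
RN7SKP255: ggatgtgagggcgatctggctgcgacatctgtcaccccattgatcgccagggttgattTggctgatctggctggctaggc
RN7SKP203: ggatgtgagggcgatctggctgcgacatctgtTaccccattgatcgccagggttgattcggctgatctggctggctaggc
RN7SKP80: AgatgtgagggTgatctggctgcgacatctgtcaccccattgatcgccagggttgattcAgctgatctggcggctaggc
RN7SKP237: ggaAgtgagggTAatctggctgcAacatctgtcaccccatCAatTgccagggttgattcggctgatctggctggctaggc
RN7SKP90: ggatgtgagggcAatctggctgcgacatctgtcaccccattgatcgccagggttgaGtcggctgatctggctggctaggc
RN7SKP217: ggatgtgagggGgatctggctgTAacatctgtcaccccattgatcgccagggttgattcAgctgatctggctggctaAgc
RN7SKP181: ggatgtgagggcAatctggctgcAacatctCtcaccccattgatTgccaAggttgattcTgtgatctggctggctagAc
RN7SKP234: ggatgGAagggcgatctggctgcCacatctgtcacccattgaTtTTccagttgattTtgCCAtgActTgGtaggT
RN7SKP288: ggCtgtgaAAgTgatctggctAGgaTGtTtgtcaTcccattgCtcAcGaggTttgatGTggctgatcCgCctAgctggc

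RN7SKP255 and RN7SKP203 each differed from RN7SK by 1 base in this stretch, and RN7SKP90 by 2. RN7SKP288 had 19 such bases and RN7SKP234 had 14, as well as deletions. This part of RN7SK holds 3 GATC elements, and the pair at bases 42 to 45 and 64 to 67 is known for its part in HEXIM1 binding. At the aligned place all 4 bases were kept in 31 of 57 copies for bases 13 to 16, in 27 for bases 42 to 45 and in 49 for bases 64 to 67.

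Reads of 50 nt, the length used here, can match a copy and RN7SK equally, and BitSeq, the program that made the values, then divides them. Of the 57 copies, 8 held at least 1 window of 50 nt that is exact in RN7SK, 41 held a window within 2 mismatches of it, and 33 held no window that is exact in any other transcript of the annotation. The longest stretches of those shown above belong to RN7SKP203, which matched bases 34 to 176 of RN7SK over 143 nt, and to RN7SKP80, over 128 nt. The run of RN7SKP203 is printed because no read inside it can tell the copy from RN7SK.
RN7SKP203: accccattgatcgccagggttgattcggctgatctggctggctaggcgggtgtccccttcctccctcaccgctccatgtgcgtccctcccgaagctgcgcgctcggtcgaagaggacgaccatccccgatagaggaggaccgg

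In each of the 6 libraries RN7SK was by far the most abundant member of its family, and the copies together came to a few percent of it. RN7SK stood at 5701, 1677 and 2970 RPKM in the D391N libraries and at 13976, 23331 and 13758 RPKM in the controls. Levels are shares of a library, so less of an RNA and more of the other RNAs cannot be told apart. Nor can fewer cells with an RNA and less of it per cell, since the RNA was pooled over cells. The means of RN7SK were 3449 ± 2054 and 17022 ± 5465 RPKM (SD, n = 3 each), with every D391N library below every control. The log2 fold change (D391N minus control, on log2(RPKM + 0.1), as throughout) was -2.43 with a standard error of 0.61, which limma did not call (Benjamini-Hochberg adjusted p = 0.158). A two-sided exact permutation test of the 6 values gave p = 0.10, the smallest that 3 against 3 allows. Without D391N replicate 1 the log2 fold change was -2.89 and limma called it (adjusted p = 0.0253), but it then called 6.99% of all transcripts. With any other library left out RN7SK was not called (limma adjusted p = 0.273 to 0.437). After quantile normalization its log2 fold change was -1.35.

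The summed level of the 57 copies was 168, 96.3 and 118 RPKM in the D391N libraries and 341, 418 and 290 RPKM in the controls. The means were 128 ± 36.9 and 350 ± 64.7 RPKM (SD, n = 3 each), so the controls held 2.74 times the D391N level, without overlap. RN7SK differed more than this sum did, although 5 single copies had a more negative log2 fold change than RN7SK. Taken as a percent of RN7SK in the same library, the sum was 2.95, 5.75 and 3.98 in D391N and 2.44, 1.79 and 2.11 in the controls, again without overlap and now higher in D391N. The means of that share were 4.23 ± 1.41% and 2.11 ± 0.32% (SD, n = 3 each). The separation did not hold for the 31 copies that do not lie within another gene on the same strand. Their sum was 106, 41.1 and 82.3 RPKM in D391N and 263, 326 and 210 RPKM in the controls. Taken as a percent of RN7SK, it overlapped between the conditions. Since the copies were selected on their level, no p is given for sums over them.

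**Figure D1:**
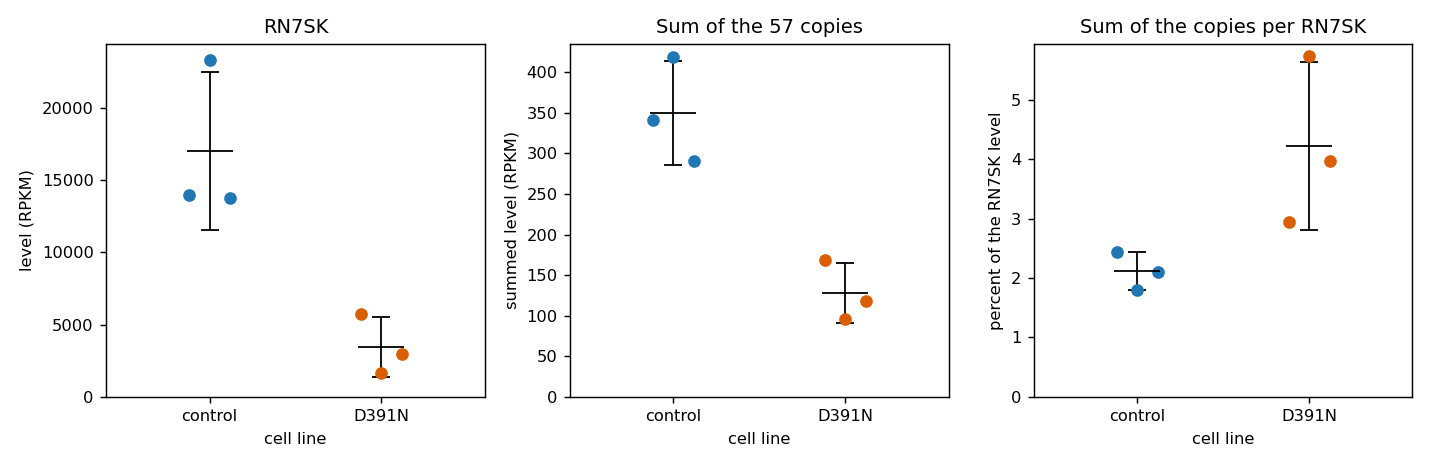
Level of RN7SK, summed level of the 57 copies (both in RPKM) and the sum as a percent of RN7SK, by cell line. Points are the 3 libraries of each line, the wide bar is their mean and the whiskers are 1 SD; the D391N libraries are lower in the first 2 panels and higher in the third, where they lie between 2.95 and 5.75%.

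A few copies made up much of the sum. RN7SKP237 alone held 21.4% of the summed mean level and the top 4 copies held 51.7%. The 4 were RN7SKP237, RN7SKP185, RN7SKP203 and RN7SKP80, each with a mean over 10 RPKM. Of the other 53 copies, 34 had a mean of at least 1 RPKM and 19 lay between the threshold and 1 RPKM. Without the top 4 the sum was 81.4, 76.0 and 63.8 RPKM in D391N against 139, 186 and 146 RPKM in the controls, and the controls held 2.13 times the D391N level.

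Most copies were lower in D391N, but 1 passed the test. Every D391N library lay below every control in 26 of the 57 copies (45.6%), against 15.4% of the 75700 transcripts tested. The opposite order was seen in 2 copies (3.51%), against 8.72% of all transcripts, and in 29 copies the conditions overlapped. The log2 fold change was negative in 46 copies (80.7%), against 55.9% of all transcripts. Its median was -1.15 over the copies, with quartiles of -1.66 and -0.32 and a range of -4.42 to 2.10, against -0.10 over all transcripts tested. limma called 1 copy, RN7SKP90, among 40 calls in all, which is 0.0528% of the transcripts. At an unadjusted p under 0.05 there were 28 copies, 27 of them lower in D391N, against 16.7% of all transcripts.

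The threshold on the mean favours copies that are high in either condition. The control mean alone was over 0.5 RPKM in 16 copies, the D391N mean alone in 2, and both were in 39. Among the 16 were RN7SKP90, the copy that limma called, RN7SKP217 and RN7SKP1. Their D391N means were 0.383, 0.371 and 0.483 RPKM, so they passed the threshold only through the controls. Of the 39 copies over it in both means, 13 were lower without overlap and 2 higher, with a median log2 fold change of -0.87. Over all transcripts tested, 15.4% were lower and 8.72% higher without overlap, and the median was -0.10. The last copies inside the threshold were RN7SKP50, which had 0.244, 1.72 and 0.494 RPKM in D391N and 0.0677, 0.272 and 0.590 RPKM in the controls, and RN7SKP72, with 0.413, 0.104 and 0.0883 RPKM against 0.822, 0.806 and 0.987 RPKM. The first ones outside were RN7SKP91, with a mean of 0.499 RPKM, and RN7SKP114, with 0.492 RPKM.

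**Figure D2:**
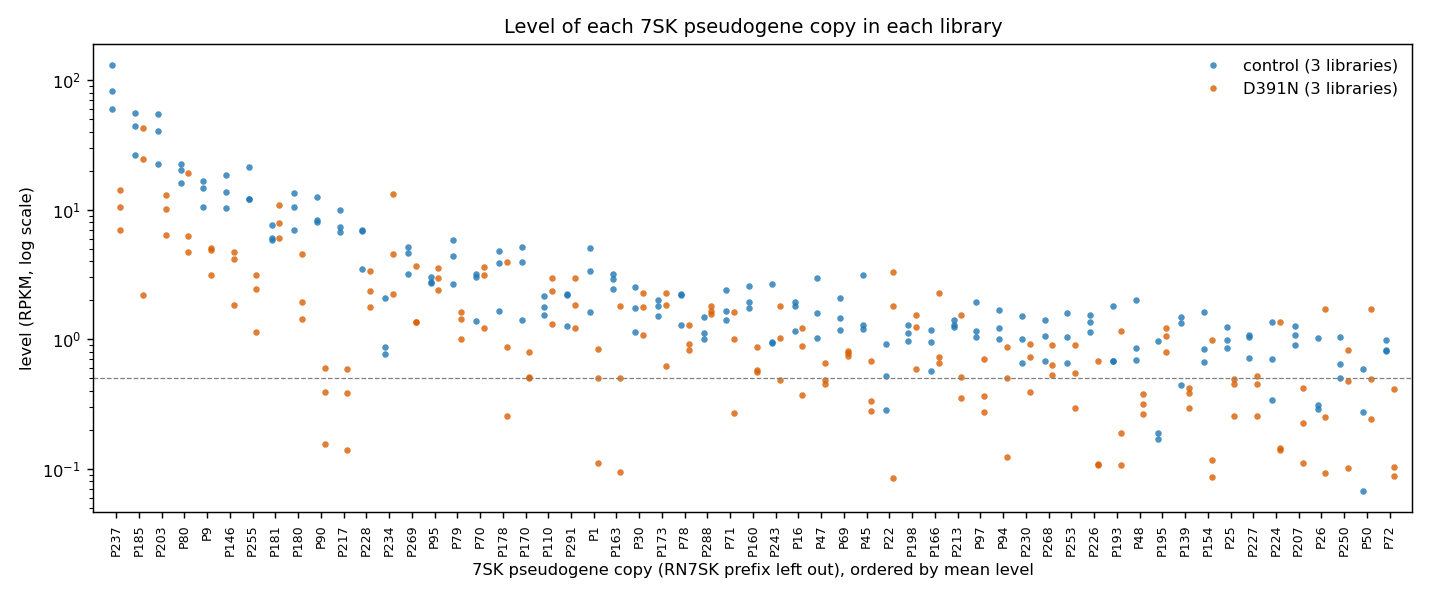
Level of each of the 57 copies in each library (RPKM, log scale), ordered by mean level, with control libraries in blue and D391N libraries in orange. The dashed line is the 0.5 RPKM threshold, and the blue points lie above the orange ones without overlap in 26 copies.

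RN7SKP237 was the most abundant copy. It lies on the minus strand at chr4:140606281-140606581, inside the gene MGST2 but on the opposite strand, and is 84.3% identical to RN7SK with no exact window in any other transcript. Its level was 14.3, 7.04 and 10.5 RPKM in D391N and 83.1, 131 and 60.3 RPKM in the controls, so the lowest control was over the highest D391N library. The controls averaged 8.60 times the D391N level, with a log2 fold change of -3.08 and a standard error of 0.39 (limma adjusted p = 0.0634). With values under 3 estimated reads set to 3 reads, which changes other transcripts but not this one, it was called (adjusted p = 0.0367). Per 1000 of RN7SK it stood at 2.51, 4.195 and 3.54 in D391N against 5.95, 5.60 and 4.38 in the controls.

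RN7SKP185, the second by level, behaved otherwise. It lies at chr20:36603558-36603883 on the minus strand, with no other gene there, and is 89.6% identical to RN7SK. It had 43.1, 2.21 and 24.6 RPKM in D391N and 55.5, 26.4 and 44.7 RPKM in the controls. The conditions overlapped, and the low mean in D391N came mostly from replicate 2: the log2 fold change of -1.58 (limma adjusted p = 0.464) was -0.31 without that library (adjusted p = 0.784).

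RN7SKP203 (chr2:76672205-76672536, minus strand, no other gene there) had 10.2, 6.38 and 13.1 RPKM in D391N and 40.8, 55.2 and 22.6 RPKM in the controls. The groups did not overlap, and the log2 fold change was -1.96 (limma adjusted p = 0.127). RN7SKP80, within RRP7BP on the same strand (chr22:42961054-42961336), is the copy nearest to RN7SK at 94.0% identity. It had 19.3, 4.72 and 6.28 RPKM in D391N and 22.7, 20.1 and 16.2 RPKM in the controls, and overlapped through D391N replicate 1. Without that library its log2 fold change went from -1.22 (limma adjusted p = 0.301) to -1.82, which limma called, as it then did 6.99% of all transcripts.

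Among the copies between 5 and 10 RPKM most were lower in D391N without overlap. RN7SKP9, inside UBAC2 on its strand (chr13:99857962-99858260), had 5.04, 3.14 and 4.91 RPKM against 10.5, 14.8 and 16.7 RPKM in the controls. RN7SKP146, at chr18:586517-586850 with no other gene there, had 4.17, 1.83 and 4.73 RPKM against 10.3, 18.5 and 13.7 RPKM. RN7SKP180, inside SLC39A11 on its strand (chr17:70659962-70660291), had 4.53, 1.95 and 1.43 RPKM against 10.4, 13.4 and 6.92 RPKM. In all of these the lowest control exceeded the highest D391N library. Their log2 fold changes were -1.66, -2.03 and -2.03, and limma called none (adjusted p = 0.109, 0.124 and 0.143). RN7SKP255, whose first 80 bases differ from RN7SK by 1 base, had 2.46, 1.15 and 3.16 RPKM in D391N and 12.1, 21.5 and 12.03 RPKM in the controls. Its log2 fold change of -2.76 was lower than that of RN7SK (limma adjusted p = 0.0845), and per 1000 of RN7SK it stood at 0.432, 0.684 and 1.06 against 0.868, 0.923 and 0.874, which overlapped.

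The most negative log2 fold changes were those of RN7SKP90, which fell, and RN7SKP217, which missed the threshold. RN7SKP90 lies at chr11:16863800-16864134 on the plus strand, opposite to PLEKHA7, and had 0.395, 0.155 and 0.598 RPKM in D391N against 8.07, 12.6 and 8.33 RPKM in the controls. Its log2 fold change was -4.42 with a standard error of 0.44 (limma adjusted p = 0.0449). RN7SKP217, at chr15:77028982-77029321 opposite to SCAPER, had 0.386, 0.139 and 0.589 RPKM against 6.70, 10.02 and 7.30 RPKM, with a log2 fold change of -4.21 (limma adjusted p = 0.0525). In D391N both rested on almost no reads. By the posterior variance RN7SKP90 had 2.32, 0.07 and 3.37 reads in D391N and 80.6, 128 and 56.3 in the controls, and RN7SKP217 had 0.92, 0.06 and 3.87 against 55.2, 90.8 and 41.2, so the sizes of these changes are poorly known. With values under 3 reads set to 3 reads the log2 fold changes were -3.70 for RN7SKP90 and -3.21 for RN7SKP217. Both were called (limma adjusted p = 0.00819 and 0.0124). For each copy, however, 2 of its 3 D391N values were then set by the floor, which fixes part of their spread. Both copies also passed the level threshold only through the controls, so these calls add no support. The call on RN7SKP90 was lost under 12 other alternatives, in which its log2 fold change lay between -4.83 and -4.02. The levels of the pair differed by less than 2 RPKM in the means, although the copies are 80.9% identical and share no 50-nt window. PLEKHA7 summed over its transcripts had 9.38 RPKM on average in D391N and 12.5 RPKM in the controls, and SCAPER had 32.1 and 30.3 RPKM.

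RN7SKP1, at chr13:37740489-37740795 with no other gene there, was the last of the copies named here with a more negative log2 fold change than RN7SK. It had 0.498, 0.112 and 0.839 RPKM in D391N and 5.03, 3.39 and 1.62 RPKM in the controls, with a log2 fold change of -2.67 (limma adjusted p = 0.154), or -1.92 with low values set to 3 reads. There were 5 such copies in all, the others being RN7SKP90, RN7SKP217, RN7SKP237 and RN7SKP255.

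RN7SKP181, RN7SKP234 and RN7SKP288 were among the 11 copies with a positive log2 fold change. RN7SKP181, at chr15:97385299-97385614 with no other gene there, had 7.93, 10.9 and 6.05 RPKM in D391N and 5.86, 7.65 and 6.02 RPKM in the controls, which overlapped (log2 fold change 0.32, limma adjusted p = 0.630). RN7SKP234, inside NLGN1 on its strand (chr3:173775431-173775654) and 72.4% identical to RN7SK, had 2.25, 13.2 and 4.54 RPKM against 0.773, 2.08 and 0.874 RPKM. Every D391N library exceeded every control, though the log2 fold change of 2.10 was not called (standard error 0.68, limma adjusted p = 0.218) and was 1.43 without D391N replicate 2. Its host gene NLGN1 averaged 7.62 RPKM in D391N and 8.79 RPKM in the controls. RN7SKP288, inside RBM20 on its strand (chr10:112516214-112516481), had 1.79, 1.65 and 1.58 RPKM against 1.49, 1.0001 and 1.12 RPKM, a log2 fold change of 0.46 (limma adjusted p = 0.486).

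The log2 fold change was more negative in copies more alike RN7SK. Across the 57 copies Pearson's r between identity and log2 fold change was -0.48 and Spearman's rho was -0.50, a description only, since copies share libraries, depth and in part reads. Spearman's rho was -0.38 over the 52 copies of at least 75% identity and -0.45 over the 49 copies with no exact window in RN7SK. Many of these 49 still held windows within 2 mismatches of RN7SK, and the part of shared reads was not tested. In the 19 copies of highest identity (85.7 to 94.0%) the median log2 fold change was -1.53, with 13 lower without overlap. The middle 19 had a median of -0.99, with 8 lower. The 19 of lowest identity (61.5 to 82.6%) had a median of -0.52, with 5 lower and 2 higher. Of all transcripts tested, 15.4% were lower and 8.72% higher without overlap. All 57 copies enter here, with the 16 that passed the threshold through the control mean alone and the 2 through the D391N mean alone. That selection favours negative changes, and the trend within the 39 copies over the threshold in both means was not tested. The same limit holds for the classes by position and by shared windows below.

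The position of a copy went with its change too. Of the 57 copies, 26 lay within another gene on the same strand, 17 within a gene on the opposite strand only, and 14 where no other gene is annotated. RN7SKP70, within CLK4, was the only one to overlap an exon, and its log2 fold change was 0.03. The median log2 fold change was -0.84 for copies on the strand of a host gene, with 8 lower and 2 higher without overlap. It was -1.44 on the opposite strand, with 10 lower, and -1.52 where there was no other gene, with 8 lower. The shares over all transcripts were 15.4% lower and 8.72% higher. Copies on the strand of a gene also had less identity to RN7SK, with a median of 83.6% against 84.8% and 85.7% in the other classes. Among copies on the host strand, the 15 of lower identity had a median of -0.19 and the 11 of higher identity -1.20. Among the others the medians were -0.88 for the 14 of lower and -1.54 for the 17 of higher identity. The host genes went both ways. Over the 25 measured hosts on the same strand the log2 fold change, from levels summed over a gene's transcripts, had a median of -0.01 and was negative in 13. It ran from -0.69 for MAML3 to 1.09 for AKAP12, and Spearman's rho between copy and host was 0.28 over these 25 pairs. Reads from an intron of the host and from the copy cannot be told apart in these values, and use of strand in the alignment is not given in the sources used here.

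**Figure D3:**
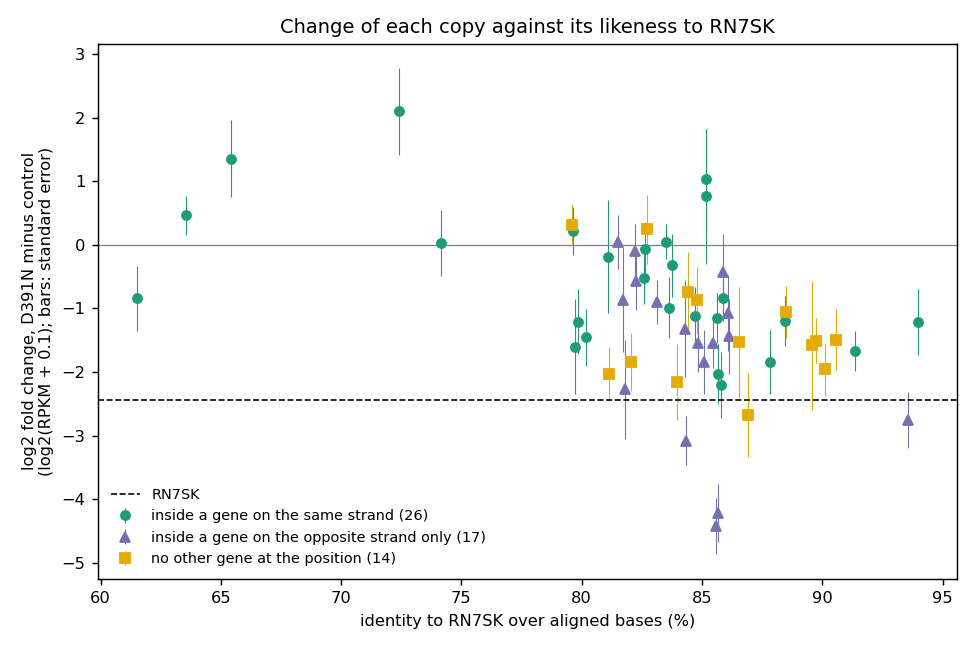
Log2 fold change (D391N minus control, on log2(RPKM + 0.1), with the standard error as bars) against identity to RN7SK in percent for the 57 copies, by position relative to other genes. The dashed line is RN7SK at -2.43, below which 5 copies lie; the copies under 75% identity all lie within genes on the same strand.

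The posterior variance, which holds counting error and the error of dividing reads, was larger in the D391N libraries. Its median over the copies, on the natural log scale, was 0.161, 0.291 and 0.210 in D391N and 0.0922, 0.0680 and 0.112 in the controls. Turned into reads, the median copy rested on 5.70, 2.91 and 4.24 reads in D391N and on 10.3, 14.2 and 8.45 in the controls. Under 3 reads were behind 19, 30 and 17 copies in D391N and 5, 2 and 5 in the controls, and 21 copies had at least 3 reads in every library. Depth estimated from transcripts with no reads was 0.725, 0.621 and 0.807 of that of control replicate 2 in D391N, and 0.947 and 0.674 in control replicates 1 and 3.

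Where the copies share windows with RN7SK, the variance was larger than counting alone gives. For RN7SK the reads implied by the variance were 99.1% of those implied by its level. The median was 76.0% (66.6 to 97.8%) for the 8 copies with an exact window in RN7SK and 90.8% (57.1 to 107%) for the other 49. The lowest values of the named copies were 66.9% for RN7SKP255, 70.7% for RN7SKP80 and 73.0% for RN7SKP203. The 8 copies had a median log2 fold change of -1.54 and the other 49 one of -1.06, with 4 and 22 copies lower without overlap. What part of the levels of the 8 came from reads of RN7SK was not tested. In the 33 copies with no window in any other transcript the median was -0.99, with 12 lower and 2 higher. Over all transcripts 15.4% were lower and 8.72% higher without overlap.

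**Figure D4:**
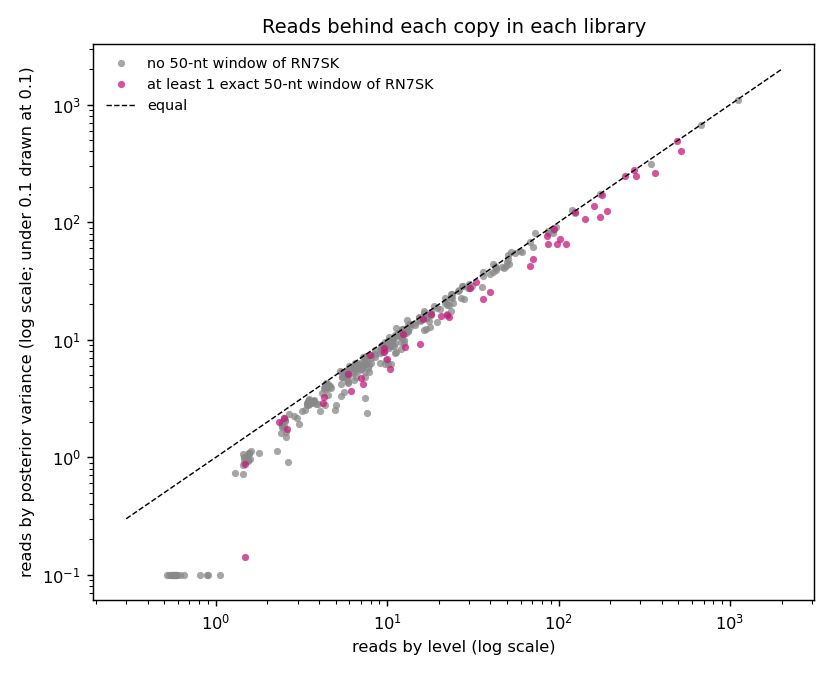
Reads behind each copy in each library as implied by the posterior variance, against those implied by its level (both log scales; values under 0.1 are drawn at 0.1). Points below the dashed line have more uncertainty than counting alone gives, with a median of 76.0% for the 8 copies with an exact 50-nt window of RN7SK and 90.8% for the other 49.

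The copies in D391N replicate 2 stood furthest from the controls. The median deviation of the copies from their mean over the libraries was -0.20, -1.02 and -0.63 (log2) in D391N and 0.40, 0.65 and 0.51 in the controls. In that replicate transcripts under 200 nt held 0.342% of the estimated reads, against 2.43% and 1.52% in the other D391N libraries and 2.89 to 3.18% in the controls. What part the low share of short RNA has in the levels of the copies, which are longer than 200 nt, was not tested. Without this library 29 copies were lower without overlap and 2 higher, against 20.3% and 11.5% of all transcripts. Leaving out each library in turn gave 27 to 37 lower copies (47.4 to 64.9%), against 18.4 to 25.6% of all transcripts, with the highest share of both without D391N replicate 1. Without that library limma called 14 copies (24.6%), against 6.99% of all transcripts.

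The copies of 2 other RNA polymerase III genes had negative medians nearer to 0. Of the 7SL copies, pseudogenes of the RNA of the signal recognition particle, 323 of 600 passed the same threshold, with a median log2 fold change of -0.34. Of these 57 were lower without overlap (17.6%, near the 15.4% of all transcripts) and 4 higher (1.24%, against 8.72%). limma called none, with 58 at an unadjusted p under 0.05 (18.0%, against 16.7% of all transcripts). Of the U6 copies, pseudogenes of a spliceosomal RNA and far shorter than 7SK, 740 of 1289 passed, with a median of -0.68. Their lower quartile was -1.95, more negative than the -1.66 of the 7SK copies. Of these U6 copies 206 were lower without overlap (27.8%, against 15.4% of all transcripts) and 15 higher (2.03%). limma called 2 of them, with 225 at an unadjusted p under 0.05 (30.4%, against 16.7% of all transcripts). Over the libraries the 7SL copies followed another course, with a median deviation of 0.33 in D391N replicate 2 and -0.73 in replicate 3. The U6 copies had 0.002, -0.58 and -0.61 in D391N, where the 7SK copies had -0.20, -1.02 and -0.63. The differences between the families were not tested.

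**Figure D5:**
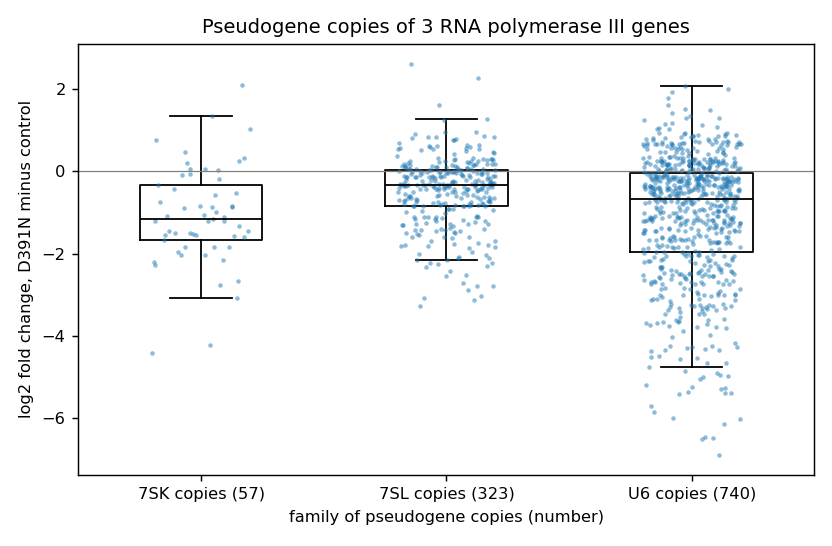
Log2 fold change (D391N minus control) of the pseudogene copies of 7SK (57), 7SL (323) and U6 (740). Boxes span the quartiles with the median as a line, whiskers reach to 1.5 times the box or the last point inside, and points are copies; the medians are -1.15, -0.34 and -0.68.

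For transcripts of the proteins that work with 7SK, the shares at low p and without overlap, over all 6 libraries, were near those of all transcripts. For 16 genes of the 7SK complex, P-TEFb and their partners, 105 transcripts were tested, and limma called none, with 14 at an unadjusted p under 0.05 (13.3%, against 16.7% of all transcripts). Without overlap 12 were lower (11.4%, against 15.4%) and 11 higher (10.5%, against 8.72%), and the median log2 fold change was 0.14. Of the 16 main transcripts, 1 per gene, 12 (75%) had a positive and 4 a negative log2 fold change, whereas 55.9% of all transcripts were negative. The main transcript of LARP7, which binds the 3′ end of 7SK and protects it, averaged 45.9 ± 13.0 RPKM in D391N and 30.1 ± 2.73 RPKM in the controls (SD, n = 3 each), a log2 fold change of 0.57 (limma adjusted p = 0.355). That of CDK9, the kinase of P-TEFb, averaged 3.996 ± 0.84 and 6.06 ± 0.24 RPKM (log2 fold change -0.61, limma adjusted p = 0.314). For MEPCE, which caps the 5′ end, HEXIM1, the inhibitor of the kinase, and CCNT1, its cyclin, the values were -0.33, 0.05 and 0.20 (limma adjusted p = 0.647, 0.933 and 0.708). Without D391N replicate 1, 11 of the transcripts were called (10.5%, against 6.99% of all transcripts).

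The libraries fitted their labels for the construct, while the markers of cell type gave a mixed picture. DIS3L2, summed over its transcripts, stood at 369 to 512 RPKM in D391N and 11.8 to 14.6 RPKM in the controls. Of the markers of HEK293 cells, NEFL, VIM and LIN28B lay at 15.8 RPKM or more in every library, PAX2 and LHX1 between 1.31 and 2.63 RPKM, and NEFM at 0.638 RPKM or less. The conditions did not overlap for VIM (110 to 143 RPKM in D391N, 151 to 177 RPKM in the controls) and for LIN28B (28.1 to 31.9 RPKM against 15.8 to 25.3 RPKM). The leading transcripts of PTPRC and CD3E, markers of leukocytes, had under 1 read in every library, and that of ALB at most 2.93 reads. Summed over its 14 transcripts, however, PTPRC stood at 1.34 to 1.77 RPKM, within the range of PAX2 and LHX1. The sums are not alike in support, since the leading transcripts of PAX2 and LHX1 had 13.6 to 41.5 reads. A transcript with no reads still has a level above 0 in these values, which adds to a sum over many transcripts. The sums of CD3E were 0.0796 to 0.137 RPKM and those of ALB 0.596 to 1.13 RPKM. HBB had 2.14 to 7.12 RPKM, COL1A1 2.03 to 4.05 RPKM and NPHS1 0.302 to 0.650 RPKM, each with ranges that overlapped between the conditions. HBB and COL1A1, markers of other cells, thus lay above PAX2 (at most 1.93 RPKM) and NEFM. Correlations of the log2 levels between replicates were 0.895 to 0.918 in the controls and 0.721 to 0.823 in D391N.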

How the data were processed

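RNA-seq of 3 D391N and 3 control libraries was analysed. Per the study's methods, rRNA-depleted RNA was made into libraries, sequenced as 50-nt single-end reads in lanes of 3 libraries that are not named, trimmed with cutadapt, aligned with Segemehl to Ensembl GRCh38 transcripts and quantified with BitSeq. Tool versions are not given in the sources used here. The values the authors deposited are BitSeq posterior means of RPKM on the natural log scale, 1 per transcript and library, and the posterior variance of that log value, deposited in other columns.

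RPKM was recovered by exponentiation and analysed as log2(RPKM + 0.1). Those transcripts that averaged 0.5 RPKM or more were tested with limma 3.58.1 (empirical Bayes with trend, Benjamini-Hochberg over all 75700, threshold 0.05) in R 4.3.3, tested on simulated data first. Depth, 0.621 to 1 relative to control replicate 2, was estimated from transcripts with no reads in any library. Those of 250 to 350 nt set the scale of the reads implied by a level. Reads behind a value were estimated by inverting the trigamma function of the variance. Such estimates cover counting and assignment error only. Sequence features were computed with Python 3.11.15 and biopython 1.88. Symbols matched 88.2% of 63190 gene identifiers. Named copies are the 10 of highest level, those called, the 5 greatest changes each way without overlap and the copies beside the threshold. RN7SKP70 and host genes were named after their values were seen. The members and lists were chosen with earlier results of these data known. Other pseudocounts, filters, scalings, weights, a floor of 3 reads, a replicate block and each library left out were tried. Same-numbered libraries had correlations of 0.07, 0.04 and -0.10, so the numbers did not pair them.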

Additional observations from a re-analysis of the deposited data

How the results depend on the processing

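The direction of the median over the copies, of RN7SK and of the 16 named copies held under the alternatives run, with 0 of 299 values of named copies reversed, 15 newly called and 12 no longer called. The number of copies called was 1 as reported. It was 0 with a pseudocount of 0.01 RPKM, with none, with a mean of at least 0.1 RPKM, with no filter, with median centring, without trend and with a replicate block. It was 2 with a pseudocount of 1 RPKM, with a mean of at least 10 reads and with quantile normalization, and 3 with weights from the posterior variance and with a floor of 3 reads. Calls over all transcripts, 40 as reported, were 71 with a pseudocount of 1 RPKM, 23 with 0.01 RPKM, with none and with a mean of at least 0.1 RPKM, 18 with no filter, 7 with the replicate block, 26 without trend, 68 with weights and 102 with the floor. Without 1 library in turn, 2 to 5292 transcripts and 0 to 14 copies were called, the most without D391N replicate 1, where RN7SK was called (-2.89, in a range of -2.89 to -2.003) and the number of transcripts called of the 7SK partner genes ran from 0 to 11. The median over the copies was -0.57 with a pseudocount of 1 RPKM, -1.54 with a mean of at least 10 reads and -0.70 with the floor, and -1.38 to -0.89 otherwise. The summed copies differed by -1.81 to -1.29 (log2) and their ratio to RN7SK by 0.71 to 1.19 over libraries left out, all 285 copies and sums of reads. The cause of these shifts was not tested. Counts without overlap when a library was left out were chosen after seeing the data. In D391N few reads stood behind most copies, which limits the precision of single copies.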
